A study of Mus musculus with 9 samples.

Results

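Pdk4, Lpl, Cd36, Vldlr and G0s2 are 5 genes that govern which fuel a muscle cell takes up and burns, and they were followed here across 9 RNA-seq libraries of C2C12 myotubes, the multinucleated muscle cells that this mouse myoblast line forms when it differentiates. All 5 symbols were found in the table of 10716 genes, under the identifiers ENSMUSG00000019577 (Pdk4), ENSMUSG00000015568 (Lpl), ENSMUSG00000002944 (Cd36), ENSMUSG00000024924 (Vldlr) and ENSMUSG00000009633 (G0s2). A vehicle group, a group given dexamethasone (50 µM) and a group given the same dexamethasone plus THSG (10 µM) had 3 libraries each, and treatment lasted 24 h. The glucocorticoid dexamethasone is widely used to provoke atrophy of cultured muscle cells, and the labels give THSG as an abbreviation only. No group received THSG alone, so its effect without dexamethasone was not measured. All libraries come from 1 cell line, and the labels do not say whether replicates were separate cultures, so every p-value measures the spread between these libraries, which may be technical. The 5 genes were chosen by symbol, selected on their measured levels in the dexamethasone and vehicle libraries, with all earlier results of these data known. Library sums ranged from 400218 to 422379 FPKM and library medians from 12.1 to 12.8, and read depth is not known. The differences of the 5 genes from vehicle are therefore a description and carry no test, and tests are kept for the addition of THSG and for other genes of the same pathways.

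Muscle can burn glucose or fatty acids, and glucocorticoids, like fasting, are known to shift whole-body fuel use towards fat. Lipoprotein lipase (Lpl) frees fatty acids from circulating triglyceride-rich lipoproteins, the VLDL receptor (Vldlr) binds such particles at the cell surface, and CD36 helps long-chain fatty acids across the membrane. Inside the cell G0S2 inhibits adipose triglyceride lipase, the enzyme that starts the breakdown of stored triglyceride. Pyruvate dehydrogenase kinase 4 (Pdk4) phosphorylates and inactivates the pyruvate dehydrogenase complex, the gate through which carbon from glucose enters mitochondrial oxidation.

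Proximal promoter sequence is shown for Pdk4 and G0s2, those of the 5 with the largest differences upward and downward, and for the Vldlr start site whose window held a match to a glucocorticoid receptor motif. Each is the 250 bases before an annotated start site, 5′ to 3′ on the gene's strand, from RefSeq on build GRCm38.p6, an earlier build than the GRCm39 that the authors used. RefSeq windows were found by symbol for Pdk4, Cd36, Vldlr (2 start sites) and G0s2, and none for Lpl. For the Cd36 window, the bases just after the start were found in 0 of 6 GENCODE transcripts of the gene. Its start site is therefore uncertain, whereas each other window matched at least 1 transcript. Capitals mark matches to the motifs described after the sequences.
Pdk4: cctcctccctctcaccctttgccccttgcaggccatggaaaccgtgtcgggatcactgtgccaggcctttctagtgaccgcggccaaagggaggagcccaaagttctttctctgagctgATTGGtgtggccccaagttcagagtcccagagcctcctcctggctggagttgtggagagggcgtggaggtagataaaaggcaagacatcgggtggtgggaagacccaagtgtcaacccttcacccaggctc
Vldlr: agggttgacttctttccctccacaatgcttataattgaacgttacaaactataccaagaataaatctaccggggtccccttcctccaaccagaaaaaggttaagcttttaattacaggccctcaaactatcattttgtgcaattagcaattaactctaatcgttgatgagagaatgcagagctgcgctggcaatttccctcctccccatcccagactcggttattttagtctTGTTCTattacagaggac
G0s2: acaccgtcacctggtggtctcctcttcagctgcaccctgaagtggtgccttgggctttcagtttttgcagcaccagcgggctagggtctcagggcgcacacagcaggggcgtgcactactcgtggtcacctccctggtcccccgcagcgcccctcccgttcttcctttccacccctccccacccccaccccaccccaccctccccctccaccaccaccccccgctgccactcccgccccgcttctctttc
The Pdk4 window is chr6:5496279-5496528 on the minus strand, that of Vldlr chr19:27216234-27216483 on the plus strand, and that of G0s2 chr1:193273189-193273438 on the minus strand. Both strands were searched for the glucocorticoid receptor palindrome (held by 0.387% of all 32851 promoter windows of this length), the shorter receptor site AGAACA (16.1%), the forkhead motif GTAAACA (3.17%), the PPAR/RXR direct repeat (0.338%), the CCAAT box CCAAT (33.8%) and the TATA box TATAAA (12.4%). The short receptor site can overlap part of the palindrome. The short receptor site occurs once among the 5 windows, on the minus strand of the Vldlr window between 18 and 13 bases before the start. A CCAAT box on the minus strand lies 131 to 127 bases before the Pdk4 start. Cd36 and the second Vldlr start site each have 1 CCAAT box, and the G0s2 window holds none of the 6 motifs. These letters within 250 bases say nothing of more distant sites. The Pdk4 window has a GC content of 58.8% and that of G0s2 67.2%, against a median of 52.4% over all windows.

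Pdk4 was measured at 7.90, 7.09 and 7.22 FPKM (fragments per kilobase of transcript, scaled to library size, the unit inferred for the deposited values) in the vehicle libraries. It stood at 78.8, 77.7 and 82.6 FPKM with dexamethasone and at 84.4, 79.2 and 79.9 FPKM with dexamethasone plus THSG. All 6 libraries with dexamethasone lay near 80 FPKM and far above the vehicle libraries, and those of the 2 dexamethasone groups overlapped. On the scale of log2(FPKM + 0.1), used for every difference here, dexamethasone exceeded vehicle by 3.41 (SE 0.0539). That is a 10.6-fold difference and the sixth largest excess among the genes of the table. Values in the table all exceed 1 FPKM, so a gene low in some libraries could be missing from such ranks. By mean level Pdk4 stood at the 32.5th percentile of the table's genes with vehicle and at the 92.8th with dexamethasone. Its replicates were tight, with a residual SD of 0.062 on the log2 scale against a median of 0.102 over all genes.

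Lpl, which encodes the lipase itself, was the lowest of the 5 in vehicle cells at 3.41, 4.11 and 4.17 FPKM. With dexamethasone its levels were 15.2, 17.4 and 19.2 FPKM, and with dexamethasone plus THSG 20.38, 16.5 and 18.01 FPKM. Every library with dexamethasone was above every vehicle library, while the ranges with and without THSG crossed. The difference between dexamethasone and vehicle was 2.12 on the log2 scale (SE 0.11), or 4.34-fold. Lpl varied more between replicates than Pdk4, with a residual SD of 0.158.

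Vldlr, the receptor gene, stood somewhat above Lpl in every group. Vehicle libraries held 6.003, 5.754 and 5.05 FPKM, dexamethasone libraries 24.4, 23.6 and 22.6 FPKM, and libraries with dexamethasone plus THSG 24.7, 26.3 and 24.4 FPKM. The vehicle group lay wholly below both others. Dexamethasone exceeded vehicle by 2.05 on the log2 scale (SE 0.0727), or 4.15-fold.

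Cd36, the fatty acid transporter gene, showed the smallest difference of the 5. It stood at 12.3, 15.7 and 15.3 FPKM in vehicle cells, 28.3, 31.9 and 33.3 FPKM with dexamethasone, and 28.02, 28.02 and 28.97 FPKM with dexamethasone plus THSG. No vehicle library reached the lowest library with dexamethasone. The log2 difference of dexamethasone from vehicle was 1.11 (SE 0.0894), or 2.16-fold.

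G0s2, the lipase inhibitor gene, went the other way. Its levels were 37.2, 33.1 and 28.6 FPKM in vehicle cells, 6.42, 6.43 and 4.10 FPKM with dexamethasone, and 5.31, 4.90 and 6.05 FPKM with dexamethasone plus THSG. All vehicle libraries were above all others, and dexamethasone replicate 3 was the lowest of the 9. Dexamethasone differed from vehicle by -2.55 on the log2 scale (SE 0.162), so that vehicle cells held 5.85 times as much, and only 1 gene of the table had a more negative difference. G0s2 was also the least even of the 5 between replicates, with a residual SD of 0.254, larger than that of 93.4% of genes. Dexamethasone replicate 3 also carried the largest share of mitochondrially encoded transcripts, 14.0%, with the lowest share, 10.5%, in vehicle replicate 1, and its part in these values was not tested. Without that library the log2 difference was -2.34 for G0s2, 3.39 for Pdk4, 2.04 for Lpl, 2.08 for Vldlr and 1.06 for Cd36.

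**Figure D1:**
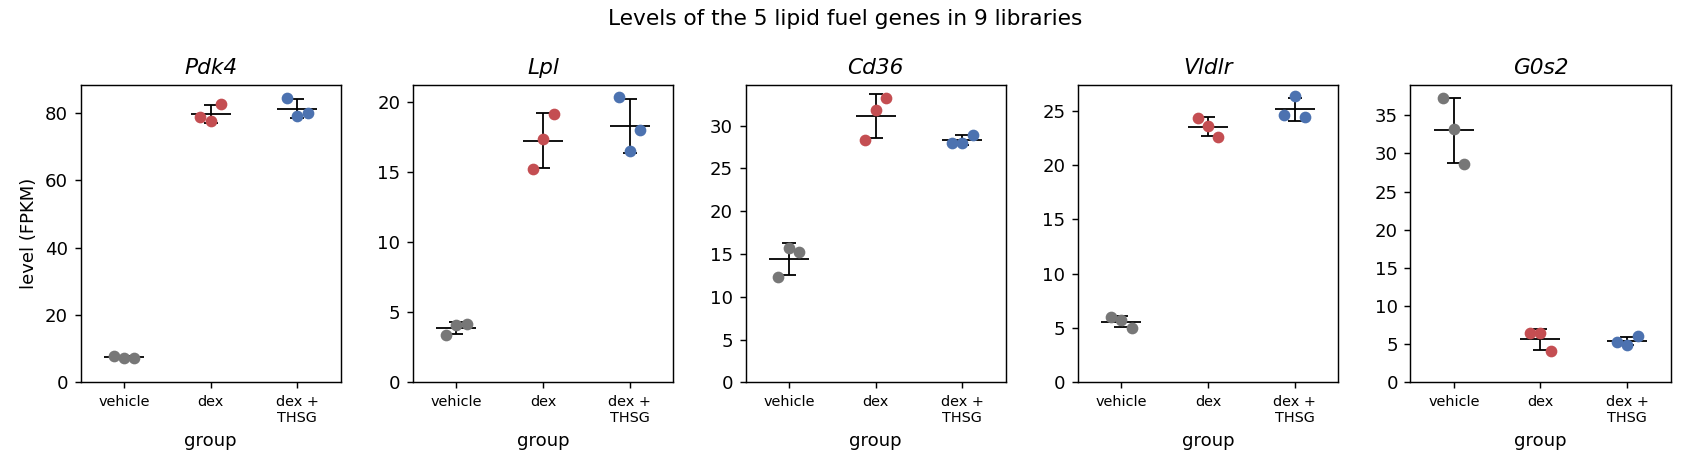
Levels of Pdk4, Lpl, Cd36, Vldlr and G0s2 in FPKM (vertical axes, each from 0) by group (horizontal axis); each point is 1 library, and the line and bars are the mean and SD of 3. Pdk4, Lpl, Cd36 and Vldlr lie higher and G0s2 lower in all 6 libraries with dexamethasone than in the 3 vehicle libraries.

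The order of the 5 genes by level differed between vehicle and dexamethasone in the places of Pdk4 and G0s2, while Cd36 was second and Vldlr stood above Lpl in every group. Such an order between genes holds only if the values are per transcript length, as the inferred unit implies. In vehicle cells it ran G0s2, Cd36, Pdk4, Vldlr, Lpl, from 33.0 ± 4.3 FPKM (SD, n = 3) down to 3.90 ± 0.42 FPKM. In both groups with dexamethasone it ran Pdk4, Cd36, Vldlr, Lpl, G0s2, from 79.7 ± 2.6 down to 5.65 ± 1.3 FPKM without THSG and from 81.2 ± 2.8 down to 5.42 ± 0.58 FPKM with it. Neighbours in each order were separate in all 3 libraries of the group, although narrowly so for Cd36 above Vldlr with THSG (lowest Cd36 library 28.02, highest Vldlr library 26.3 FPKM). Across all genes, 2.9% differed at least 2-fold between dexamethasone and vehicle, and 45.9% had no overlap between these groups (18.0% higher, 27.9% lower with dexamethasone). For dexamethasone plus THSG against vehicle 2.84% differed at least 2-fold, and 43.1% had no overlap (17.9% higher, 25.2% lower). All 5 genes met these conditions in both comparisons apart from Cd36 with THSG, which was 1.97-fold, and this follows from how they were picked.

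None of the 5 genes passed the limma test for the addition of THSG to dexamethasone. That test shares its dexamethasone libraries with the comparison on which the genes were selected, so it is not independent of the selection. The log2 difference between dexamethasone plus THSG and dexamethasone was 0.03 for Pdk4 (95% interval -0.09 to 0.14, limma adjusted p = 0.928) and 0.09 for Lpl (-0.16 to 0.33, adjusted p = 0.885). For G0s2 it was -0.03 (-0.39 to 0.32, limma adjusted p = 0.971), the widest interval of the 5. Cd36 had the most negative value, -0.13 (-0.33 to 0.06, limma adjusted p = 0.777), with 28.3 ± 0.55 FPKM with THSG and 31.1 ± 2.6 FPKM without.
Vldlr was 25.1 ± 1.0 FPKM with THSG and 23.5 ± 0.89 FPKM without, a log2 difference of 0.09 (-0.06 to 0.25, limma adjusted p = 0.802). It was the only 1 of the 5 whose libraries did not overlap between these groups, by a margin of 24.43 against 24.38 FPKM, and the same held for 13.3% of all genes (8.41% higher, 4.84% lower). None of the 5 differed 2-fold, as 0.0373% of all genes did. The test called 0 of 10716 genes (0.0%), and 777 had an unadjusted p under 0.05. Leaving out dexamethasone replicate 3 left 1 gene called, Cks2 (limma adjusted p = 0.0383), which belongs to none of the lists and is named for that call alone.
Dexamethasone plus THSG differed from vehicle by 3.44 for Pdk4, 2.20 for Lpl, 2.15 for Vldlr, 0.98 for Cd36 and -2.58 for G0s2. These values share the vehicle libraries with the differences for dexamethasone alone and are no separate evidence.

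Pdk4 belongs to a family of 4 kinases that all inhibit the pyruvate dehydrogenase complex, and transcripts of the family took different directions. Pdk3 fell from 10.0 ± 0.24 to 6.82 ± 0.52 FPKM (log2 difference -0.55, limma adjusted p = 0.00153). Pdk1 fell from 8.36 ± 0.33 to 6.47 ± 0.97 FPKM (-0.37, limma adjusted p = 0.0168), a call that was lost without vehicle replicate 1, dexamethasone replicate 1 or dexamethasone replicate 3 (adjusted p from 0.0573 to 0.0666). Pdk2, at 18.5 ± 3.2 and 21.9 ± 1.3 FPKM, was not called (0.25, limma adjusted p = 0.0864), though it was with median-ratio scaling (0.30) and without vehicle replicate 3 (0.36).
Within each library, Pdk4 made up 17.1%, 17.5% and 15.6% of the summed FPKM of the 4 kinase genes with vehicle. That share was 70.0%, 68.3% and 69.8% with dexamethasone, and 68.4%, 68.5% and 68.9% with dexamethasone plus THSG. Pdk2, the largest contributor in vehicle cells at 41.7% ± 4.4, contributed 19.0% ± 0.66 with dexamethasone, a smaller share of a larger sum. The summed level of the 4 genes was 44.3 ± 3.3 FPKM with vehicle and 115 ± 3.0 FPKM with dexamethasone. Pdk4 was selected on the dexamethasone and vehicle libraries, so these changes in share and sum are no separate evidence. The size of the shares holds only if the values are per transcript length.

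**Figure D2:**
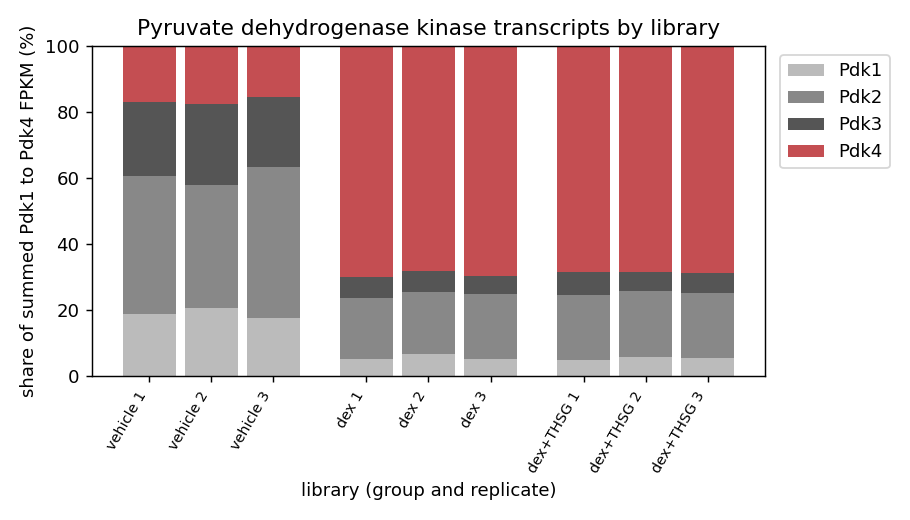
Share of each kinase gene in the summed FPKM of Pdk1 to Pdk4 (vertical axis, percent) in each of the 9 libraries (horizontal axis, group and replicate). Pdk4, picked for its response, takes 15.6% to 17.5% in vehicle libraries and 68.3% to 70.0% in dexamethasone libraries.

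Around the kinases, 13 genes of the pyruvate dehydrogenase complex, its kinases and phosphatases and the mitochondrial pyruvate carrier were listed, Pdk4 left out, and all 13 were measured. Of these, 2 rose, 2 fell and 9 were not called, beside 33.6% of all genes called for dexamethasone against vehicle. The median log2 difference was 0.11 against -0.05 over all genes. Pdp1, the phosphatase that reverses the action of the kinases, rose from 14.7 ± 1.4 to 33.0 ± 0.90 FPKM (1.16, limma adjusted p = 5.68e-07). Pdha1, the catalytic subunit that the kinases phosphorylate, rose from 106 ± 2.5 to 123 ± 3.0 FPKM (0.22, limma adjusted p = 0.00294).

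Among 17 measured genes of lipoprotein lipase handling and lipoprotein receptors (of 26 listed), 8 fell, 2 rose (Sort1 and Apoe) and 7 were not called, with a median log2 difference of -0.18. That is 58.8% called, beside 33.6% of all genes (12.7% higher and 20.9% lower). Lrp1, a large endocytic receptor of the same family as Vldlr, fell from 184 ± 8.0 to 120 ± 6.1 FPKM (-0.61, limma adjusted p = 7.19e-06). Sdc1, a heparan sulfate proteoglycan, fell from 81.8 ± 0.42 to 46.9 ± 1.1 FPKM (-0.80, limma adjusted p = 1.24e-07).
Of the proteins that handle the lipase, Lmf1, a factor needed for its folding, was not called at 11.3 ± 1.3 and 9.90 ± 0.51 FPKM (-0.18, limma adjusted p = 0.134), but passed without vehicle replicate 3 (-0.28). Angptl4, which inhibits the lipase, Gpihbp1, which carries it across the capillary wall, the related lipase gene Lipg and the receptor gene Lrp8 were not found in the table and were not analysed here. Lipa, the lysosomal acid lipase, had a mean of 21.4 ± 1.2 FPKM with vehicle and a log2 difference of -0.25 (limma adjusted p = 0.0239), a call lost with median-ratio scaling and without any of vehicle replicates 2 and 3 and dexamethasone replicates 1 and 2 (adjusted p from 0.0539 to 0.0891).

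Genes of fatty acid uptake and activation, the setting of Cd36, moved in both directions. Of 17 measured (20 listed), 2 rose, 6 fell and 9 were not called (47.1% called, beside 33.6% of all genes, of which 12.7% higher and 20.9% lower), with a median log2 difference of -0.14. Acsl1, an acyl-CoA synthetase, rose by 0.45 on the log2 scale (limma adjusted p = 0.000383), and its relative Acsl4 rose by 0.29 (adjusted p = 0.00158), from 52.9 ± 0.32 to 64.6 ± 4.2 FPKM. Acsl3 fell by 0.27 on the log2 scale (adjusted p = 0.00153) and the thioesterase gene Acot7 by 0.54 (adjusted p = 0.00043). Scarb1, a scavenger receptor related to CD36, was 11.5 ± 1.3 and 9.02 ± 0.60 FPKM (-0.35, limma adjusted p = 0.0239), and its call was lost with median-ratio scaling, with quantile normalization, without vehicle replicate 3 and without dexamethasone replicate 2 (adjusted p from 0.0532 to 0.0942).

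The target of G0s2 moved opposite to it. Pnpla2, which encodes adipose triglyceride lipase, rose from 13.7 ± 0.84 to 21.4 ± 0.56 FPKM (log2 difference 0.64, limma adjusted p = 1.86e-05). Abhd5, its coactivator, rose from 8.54 ± 0.30 to 10.4 ± 0.49 FPKM (0.28, limma adjusted p = 0.0262), with the call lost without vehicle replicate 1, vehicle replicate 2 or dexamethasone replicate 3 (adjusted p from 0.0575 to 0.0874). The ratio of Pnpla2 to G0s2 transcripts within a library was 0.387, 0.385 and 0.482 with vehicle. It was 3.38, 3.38 and 5.06 with dexamethasone, and 4.29, 4.69 and 3.35 with dexamethasone plus THSG. G0s2 was selected on the dexamethasone and vehicle libraries, so the change of this ratio is no separate evidence. The size of the ratio holds only if the values are per transcript length.
The lipid droplet and lipolysis list holds Pnpla2 and Abhd5 but not G0s2. It had 4 of 10 measured members higher and 0 lower (17 listed), with a median of 0.10. The 40.0% called stand beside 33.6% of all genes called, 12.7% higher and 20.9% lower. Plin2, a lipid droplet coat protein gene, rose from 64.6 ± 1.9 to 74.7 ± 1.2 FPKM (0.21, limma adjusted p = 0.00157). Plin3, the fourth, was at the threshold (0.16, limma adjusted p = 0.0489) and was lost under 11 of 18 alternatives. The list's count of risers was 2 to 3 on leaving out any 1 library, and 2 without vehicle replicate 2 or dexamethasone replicate 3.

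**Figure D3:**
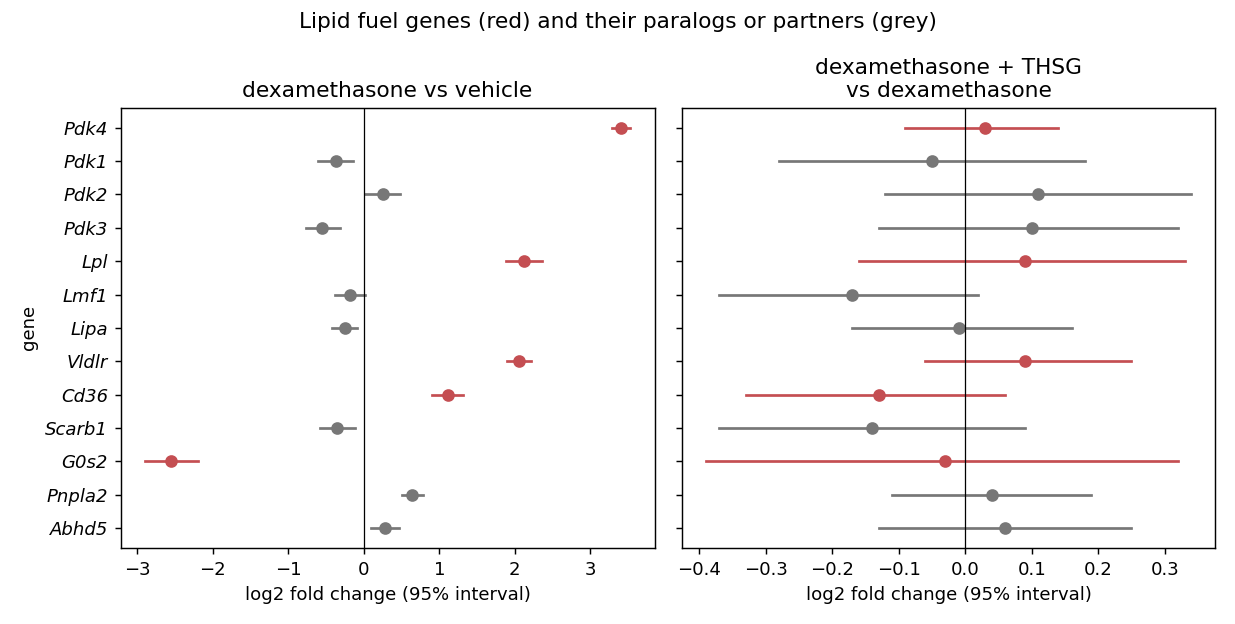
Log2 differences with 95% intervals (horizontal axes, which differ in scale) of the 5 genes in red and 8 paralogs and partners in grey, for dexamethasone against vehicle (left) and dexamethasone plus THSG against dexamethasone (right). On the left Pdk4 lies at 3.41 with Pdk1 to Pdk3 between -0.55 and 0.25, and on the right every interval crosses 0.

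The enzymes that burn the fatty acids changed little. Of 21 measured genes of mitochondrial fatty acid oxidation (24 listed), 1 rose, 1 fell and 19 were not called, so 9.52% were called beside 33.6% of all genes, and log2 differences lay between -0.23 and 0.30. The riser was Crat, carnitine acetyltransferase, from 23.4 ± 2.4 to 28.6 ± 0.75 FPKM (0.30, limma adjusted p = 0.00755). Eci2, an enoyl-CoA isomerase, was the other (-0.23, limma adjusted p = 0.0266), and its call was lost with all 3 other scalings and without vehicle replicate 1, vehicle replicate 3 or dexamethasone replicate 3, while 3 genes of the list fell without dexamethasone replicate 2. With median-ratio scaling or quantile normalization 4 genes of the list rose and 0 fell. The muscle isoform of carnitine palmitoyltransferase, Cpt1b, was not analysed here.
Of 9 measured genes of peroxisomal oxidation (12 listed), 0 were called by limma, beside 33.6% of all genes. An unadjusted p under 0.05 was found for 2 of the 9 and for 4664 of all 10716 genes. The median log2 difference of the list was -0.02.

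Triglyceride synthesis genes were mixed, with 3 higher, 2 lower and 7 not called of 12 measured (14 listed) and a median of -0.02. The share called was 41.7% here and 33.6% over all genes (12.7% higher, 20.9% lower). Lpin3, a phosphatidate phosphatase gene, rose from 12.6 ± 1.0 to 24.1 ± 0.16 FPKM (0.94, limma adjusted p = 9.48e-07). Its relative Lpin2 fell from 12.9 ± 0.84 to 9.42 ± 0.83 FPKM (-0.45, limma adjusted p = 0.002). The other calls, Agpat3 (0.24) and Agpat4 (0.16) higher and Agpat1 (-0.18) lower, were small, and the number of risers fell to 1 without vehicle replicate 2, vehicle replicate 3, dexamethasone replicate 1 or dexamethasone replicate 2. The number of fallers fell to 1 without vehicle replicate 1, vehicle replicate 3, dexamethasone replicate 1 or dexamethasone replicate 3.

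Transcription factors and cofactors known to act on fuel genes held the largest differences of the 8 lists. Of 18 measured (24 listed), 5 rose, 3 fell (Ppard, Srebf1 and Nr3c1) and 10 were not called, with a median of 0.09. Called were 44.4%, beside 33.6% of all genes (12.7% higher, 20.9% lower). Cebpa, a factor of adipocyte and liver gene programmes, rose from 6.25 ± 1.1 to 26.5 ± 0.98 FPKM (2.08, limma adjusted p = 2.9e-08), and Cebpd, of the same family, from 2.14 ± 0.16 to 7.21 ± 0.79 FPKM (1.70, adjusted p = 2.15e-07). Foxo3, a forkhead factor active in fasting, rose from 12.8 ± 0.41 to 21.5 ± 0.49 FPKM (0.74, limma adjusted p = 1.39e-06), and the other risers were Mlxip (0.45) and Nrip1 (0.40).
Srebf1, a factor that drives lipid synthesis genes, fell from 37.1 ± 2.7 to 25.9 ± 2.2 FPKM (-0.52, limma adjusted p = 0.000262). Nr3c1, the glucocorticoid receptor gene, fell from 15.1 ± 1.1 to 11.5 ± 0.74 FPKM (-0.39, limma adjusted p = 0.00629). Ppara and the coactivator gene Ppargc1a were not analysed here.

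**Figure D4:**
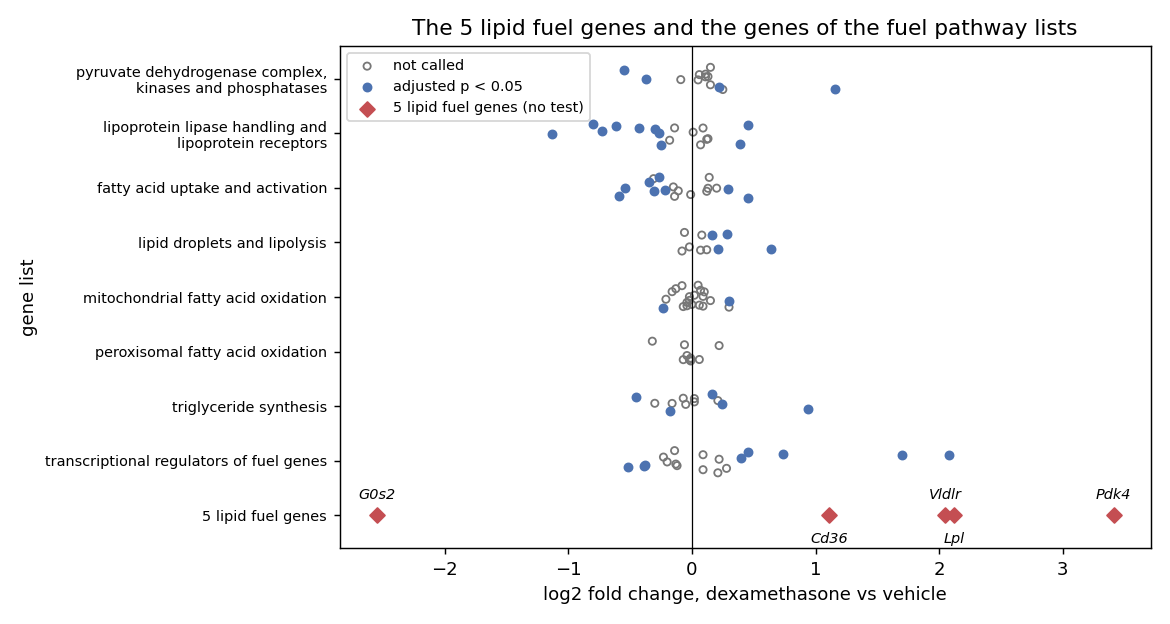
Log2 differences between dexamethasone and vehicle (horizontal axis) of every measured gene in 8 pathway lists (rows; filled, limma adjusted p under 0.05; open, not called) and of the 5 lipid fuel genes (diamonds, no test). Points are spread vertically within a row for visibility. Cebpa lies farthest to the right of the listed genes, at 2.08, and the 5 genes, picked for their response, between -2.55 and 3.41.

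Taking the 8 lists as 1 set of 117 measured genes (150 listed), 19 rose and 22 fell with dexamethasone, so 35.0% were called, near the 33.6% of all genes. With median-ratio scaling 31 rose and 18 fell. For dexamethasone plus THSG against vehicle 23 rose and 18 fell, again 35.0%, beside 29.1% of all genes.
For the addition of THSG, 0 of the 117 were called by limma. Beside 777 of all 10716 genes, 10 of the 117 had an unadjusted p under 0.05. The lowest was that of Fabp5, an intracellular fatty acid carrier gene singled out after its values were seen, at 9.57 ± 0.29 FPKM with THSG and 7.38 ± 0.67 without (0.37, 95% interval 0.18 to 0.57, limma adjusted p = 0.348). Cebpd followed at 9.61 ± 0.47 and 7.21 ± 0.79 FPKM (0.41, 0.19 to 0.64, limma adjusted p = 0.413).

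Likeness of pattern was measured as the root-mean-square difference between log2 values over the 9 libraries, each gene centred on its own mean, where 0 is an identical profile. Nearest to Pdk4 were Selenop, a secreted selenoprotein (0.18), Vegfd, a lymphatic growth factor (0.22), and Fkbp5, an immunophilin that binds steroid receptor complexes (0.22). Lpl was most like Postn, the matrix protein periostin (0.09), then Nrbp2 (0.12) and Trp53inp1 (0.13). Vldlr was most like Prg4, Gda and Fmo1 (0.10 each).
Lpl and Vldlr were close to each other, at 0.19, with Vldlr the 12th nearest gene to Lpl and Lpl the 22nd nearest to Vldlr. The measure includes the dexamethasone and vehicle libraries on which both were selected, so their likeness is no separate evidence. Cd36 was most like Cp, the ferroxidase ceruloplasmin (0.08), Ndst4 (0.09) and Slc39a10 (0.10). G0s2 had less close neighbours, Tnc, the matrix protein tenascin-C (0.24), Col8a1, a collagen gene (0.24), and Dynap (0.26).

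Lpl, Cd36 and G0s2 are also abundant in fat cells, Lpl and Cd36 in macrophages as well, and Cd36 in capillary endothelium, so markers of those cells were examined. Of 14 adipocyte markers only Pparg and Lipe were in the table, and together they summed to 4.15 to 4.74 FPKM with vehicle, 4.55 to 5.43 with dexamethasone and 4.83 to 6.18 with dexamethasone plus THSG. Adipoq, Plin1 and Fabp4 were not found in it. All values there exceed 1 FPKM, so a gene that was low in some libraries only could be missing. Absence therefore does not show whether a marker differed between groups. Neither Pparg (0.22, limma adjusted p = 0.308) nor Lipe (0.07, adjusted p = 0.821) was called for dexamethasone against vehicle. Of 10 macrophage markers only Cd14 was present, at 2.97 to 4.05 FPKM with vehicle and 1.45 to 3.21 with dexamethasone, and 0 of 10 endothelial markers were.
All 12 muscle markers were measured, with summed levels of 10700 to 12000 FPKM with vehicle, 11300 to 12100 with dexamethasone and 12000 to 12300 with dexamethasone plus THSG. Mylpf and Acta1, the most abundant, make up most of that sum and were not called for dexamethasone against vehicle (0.02 and 0.04). Of the 12, 6 were called higher (Myh8 1.06, Actn2 0.91, Myh1 0.77, Ckm 0.74, Tnnt3 0.29 and Mymk 0.26) and 2 lower (Myod1 -0.20 and Des -0.16), or 66.7% beside 33.6% of all genes. Of 12 markers of fibroblasts and fibro-adipogenic progenitors 7 were measured. Their sum was 952 to 1030 FPKM with vehicle, 639 to 667 with dexamethasone and 672 to 699 with dexamethasone plus THSG. For dexamethasone against vehicle 5 were called lower (Col3a1, Col1a1, Pdgfrb, Dcn and Cd34) and 2 higher (Ly6a and Pdgfra). The share called was 100%, beside 33.6% of all genes (12.7% higher, 20.9% lower). The part of these marker differences in the values of the 5 genes was not tested. In bulk RNA, fewer cells of a type and less RNA per cell cannot be told apart.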

How the data were processed

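RNA from C2C12 myotubes was sequenced in 3 groups of 3 libraries, made with a TruSeq stranded mRNA kit per the labels' protocols. Of the alignment, the submitters' processing notes list the build GRCm39 and the tools featureCounts and STAR 2.7.10a. The authors deposited 1 table for 10716 genes. It is called counts, but the values are fractional and all exceed 1, so they were taken to be FPKM scaled by the authors. That unit is inferred. The lengths, strand setting and filter used are not given in the sources used here. No common step between values was found, so depth is unknown and precision is known only from replicates. Groups followed the sample titles (the cell line field counts upward from C2C12 and was not used).

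FPKM values plus 0.1 were put on the log2 scale, and limma 3.58.1 (R 4.3.3) was fitted with 1 mean per group over the 9 libraries, an intensity trend, two-sided tests and Benjamini-Hochberg adjustment over all 10716 genes (threshold 0.05). The script was tested on simulated data. Symbols were checked by identifier, with 10670 matched to GENCODE names and 51 replaced. The 5 genes, the pathway and marker lists and the tests were chosen with earlier results of these data known. Named are the 5 genes, up to 4 genes per pathway list with the smallest p for dexamethasone against vehicle, fixed paralogs and partners, the 3 most abundant genes per marker list, and the 3 genes most like each of the 5; others are marked, and 3 list genes that the rule names are not reported here. No annotated gene overlapped exons of the 5 (GENCODE, GRCm38). Alternatives covered pseudocount, scaling, a filter at a mean of 5 FPKM, the variance model, the groups fitted, a replicate block and leaving out each library.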

Additional observations from a re-analysis of the deposited data

How the results depend on the processing

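The direction of each of the 5 genes for dexamethasone against vehicle held under all 18 alternatives. A pseudocount of 1 moved the log2 difference to 3.26 for Pdk4, 1.90 for Lpl and 1.90 for Vldlr. Leaving out 1 library at a time gave 3.38 to 3.46 for Pdk4, 2.03 to 2.20 for Lpl, 1.00 to 1.18 for Cd36, 1.98 to 2.11 for Vldlr and -2.65 to -2.34 for G0s2. For THSG added to dexamethasone the differences near 0 changed sign for some of the genes, with leave-one-out ranges of -0.002 to 0.05 for Pdk4, -0.00061 to 0.16 for Lpl and -0.25 to 0.07 for G0s2, against -0.20 to -0.08 for Cd36 and 0.06 to 0.12 for Vldlr, and none was called. The number of genes called there was 0 to 1 on leaving out a library (higher with THSG) and 1 with the replicate block, Rps2-ps10 (limma adjusted p = 0.0215). Same-numbered libraries of 2 groups deviated together with correlations of only -0.086 to 0.107. These values show no strong pairing by replicate number but cannot exclude a weak one. For dexamethasone against vehicle 1362 genes were higher and 2239 lower. The share of higher among called genes was 37.8% as deposited, 50.5% after quantile normalization, 49.6% under median-ratio scaling and 42.3% when libraries had equal sums. The median log2 difference of all genes, -0.05 as deposited, was 0.004, -0.003 and -0.031 in that order. The number of risers among pyruvate dehydrogenase genes went from 2 to 5 under median-ratio scaling and to 4 after quantile normalization, and among uptake genes from 2 to 4 with both. Of peroxisomal genes 1 was called higher with each of these 2 scalings, with equal sums and without dexamethasone plus THSG replicate 3, and 1 lower without dexamethasone replicate 2. Triglyceride synthesis kept 1 riser without an intensity trend or with only the 2 groups fitted, and 1 faller under each of the 3 other scalings. Crot, a peroxisomal gene that was not called (-0.06), stood at 0.01 with quantile normalization and between -0.11 (without dexamethasone replicate 3) and 0.04 (without dexamethasone replicate 2) on leaving out a library. The causes were not tested. Read depth was not given, so what it limits cannot be stated.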
